A study of Mus musculus with 155 samples.

Results

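Ion channel and neurotransmitter receptor genes were followed across single cells of the neuroblast and oligodendrocyte lineages of the adult mouse brain. Members were the genes whose symbol begins with a channel or receptor family stem (Kcn, Scn, Cacn, Clc, Clic, Gabr, Gabbr, Gria, Grik, Grid, Grin, Grm, Chrn, Htr, Trpc, Trpm, Trpv, Itpr, Fxyd or Lrrc8). There were 26 such genes among the 3422 genes of the deposited table. Of these, 25 encode a channel, a receptor or a partner of one. The exception is Trpc4ap, which encodes a protein associated with a TRP channel and was matched by its symbol only. Both Lrrc8 genes were kept because neither is in the adhesion list used here.

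Mice were 8 to 10 weeks old, and single cells were taken by flow sorting from 2 adjoining regions. These were the subventricular zone, where new neurons arise in the adult, and the corpus callosum, a myelin-rich tract. RNA was read over whole transcripts with SMART-Seq2. OligNBL (40 cells, Gad67-GFP and Olig2-Tomato double positive, from a cross of CB6-Tg(Gad1-EGFP)G42Zjh/J with Olig2-tdTomato TH39Gsat/Mmcd), NBL (27 cells, GFP positive, the GFP strain) and OL (22 cells, Tomato positive, the Tomato strain) came from mice demyelinated 6 days earlier with an injection of LPC, a lipid that strips myelin. O (29 cells, Tomato positive, the Tomato strain) and NB (37 cells, GFP positive, the GFP strain) came from healthy mice that had no injection. Strain therefore differs with the gate in OligNBL against NBL, OligNBL against OL and O against NB, and cannot be told apart from it. The reporter transgenes mark cells with Gad1 or Olig2 promoter activity, and a cell can keep reporter protein after that activity has ended. For OligNBL the lesion field of the labels reads lesion but the titles carry the mark of a control; the lesion field is used.

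Voltage-gated potassium, sodium and calcium channels set the electrical excitability of a cell. Neuroblasts of the adult subventricular zone respond to GABA and glutamate while they migrate, and oligodendrocyte progenitors carry voltage-gated channels and glutamate and GABA receptors that change as they mature. Chloride channels, volume-regulated anion channels and the sodium pump with its FXYD regulators set ion gradients and cell volume, and IP3 receptors release calcium from the endoplasmic reticulum.

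A gene's level is the mean over cells of log2(value + 1), given with the SD between cells, and values of single cells are on the same log2 scale. Levels are not divided by transcript length, so they are compared between populations for 1 gene and not between genes. Presence is the share of cells in which the gene was among the 500 highest genes of that cell; a median of 1114 to 1397 genes was detected per cell in NB, NBL, OligNBL and O, and of 950.5 in OL. No mouse is named for any cell and 5 mice were used per condition, so each population counted as 1 sample and nothing was tested; SDs and intervals describe cells, not mice. To show how far a level depends on a few cells, means over blocks of cells with consecutive numbers in their titles (4 to 11 cells each) are given as well, for 6 blocks of OligNBL, 3 each of NBL, OL and O, and 5 of NB. The first O block joins 2 cells numbered 21 or lower to the first of the later cells. A difference of levels of at least 2 was taken as the size worth naming.

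Marker lists were read as the mean level of their measured genes in each cell. The mean level over 15 measured mature oligodendrocyte markers ran from 0 to 1.04 in OligNBL cells, 0 to 1.16 in NBL cells, 2.53 to 11.51 in OL cells, 5.92 to 9.25 in O cells and 0 to 1.65 in NB cells. Mog, Mal and Opalin were at 0 in every OligNBL cell, and Mal, Cldn11, Ugt8a, Opalin and Ptgds in every NBL cell. Over 17 neuroblast markers the median cell was at 3.26 in OligNBL, 3.16 in NBL, 1.11 in OL, 0.78 in O and 2.55 in NB, and Cd24a was at 0 in every O cell. Over 7 oligodendrocyte progenitor markers the median cell was highest in OligNBL, at 1.87 (0.40 to 7.26), with 0.41 in NBL, 0.76 in OL, 1.10 in O and 0.26 in NB. Over 2 mature neuron markers it was at 1.19 in OligNBL, 0 in NBL and OL, 2.94 in O and 2.68 in NB. No microglial or mural marker was among the genes analysed, and Pecam1, the only endothelial one, had its median cell at 7.68 in OligNBL, 8.23 in NBL, 7.73 in OL, 10.47 in O and 5.52 in NB. The 1 measured astrocyte and neural stem cell marker had its median cell at 0.26 in OligNBL and 0 in the other populations. Its highest cell was 13.18 in OligNBL, 4.41 in NBL, 2.07 in OL, 1.97 in O and 4.87 in NB. The 1 ependymal marker had its median cell at 0.05 in OligNBL, 0 in NBL, 2.70 in OL, 1.85 in O and 0.77 in NB. Its highest cell was 9.47 in NBL, 8.07 in NB and 4.61 to 4.88 elsewhere. The part of other cell types in the results below was not tested.

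The promoters of Clic4, Fxyd6 and Gria2 are shown because these 3 genes had the widest spread of levels among the 15 members with exactly 1 promoter in the RefSeq table (GRCm38.p6), which held 20 of the 26. Each is the 250 bases before the start of the gene in RefSeq, on the gene's own strand, with motif matches in capitals: Clic4 on the minus strand at chr4:135272761-135273010, Fxyd6 on the plus strand at chr9:45369935-45370184, and Gria2 on the minus strand at chr3:80802836-80803085. GENCODE places the start of Clic4 further out, so the last 54 bases of its window lie inside the gene as given below, and the other windows end at the gene.
Clic4: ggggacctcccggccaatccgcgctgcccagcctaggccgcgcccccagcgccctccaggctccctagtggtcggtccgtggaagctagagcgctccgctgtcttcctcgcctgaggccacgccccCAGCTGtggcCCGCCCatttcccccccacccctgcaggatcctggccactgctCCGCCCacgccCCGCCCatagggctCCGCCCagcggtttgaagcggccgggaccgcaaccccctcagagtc
Fxyd6: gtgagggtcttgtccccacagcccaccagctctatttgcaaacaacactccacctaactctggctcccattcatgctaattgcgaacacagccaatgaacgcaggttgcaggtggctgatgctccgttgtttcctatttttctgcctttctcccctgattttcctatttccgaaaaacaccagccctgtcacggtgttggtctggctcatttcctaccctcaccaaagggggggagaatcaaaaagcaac
Gria2: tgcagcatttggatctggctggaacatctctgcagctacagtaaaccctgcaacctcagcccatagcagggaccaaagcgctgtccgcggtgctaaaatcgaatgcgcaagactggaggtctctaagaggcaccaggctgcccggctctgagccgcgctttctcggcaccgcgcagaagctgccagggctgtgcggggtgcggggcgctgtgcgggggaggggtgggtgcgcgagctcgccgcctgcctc
The letters searched on both strands were CAGCTG, 1 form of the E-box, and the GC box GGGCGG, which do not overlap each other here. Other forms of the E-box were not searched. Clic4 held 1 match to CAGCTG and 4 GC boxes, and Fxyd6 and Gria2 held neither of these sequences. Of 32851 promoters of this length, 13% held CAGCTG and 32.7% the GC box. The GC content was 73.2% for Clic4, 50.4% for Fxyd6 and 64.8% for Gria2, with a median of 52.4% over all promoters.

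Over the 26 members the median of the highest minus the lowest population level was 2.32, against 2.35 over all 3422 genes, so the group as a whole was no more varied than the table. Members were spread over the populations. Of the 26, 9 had their highest level in OligNBL (Fxyd6, Kcnc2, Scn3a, Clcn6, Cacna1c, Kcnn2, Cacna1e, Lrrc8d and Kcnh7), 8 in NB (Clic4, Itpr1, Lrrc8a, Gria2, Clic1, Scn1a, Grik3 and Chrnb3), 3 in NBL (Trpm7, Kcnip1 and Kcnc1), 3 in OL (Grm3, Trpc4ap and Grm5) and 3 in O (Kcna1, Gabrb1 and Gabra2). As shares, 34.6% of members and 26.8% of all genes were highest in OligNBL, and 30.8% of members and 19.5% of all genes in NB. In NBL, OL and O the share of members was 11.5% each, against 17.3% of all genes in NBL, 16.7% in OL and 19.7% in O. More members were detected per OligNBL cell, with a median of 14, against 9 in NBL, 8 in OL, 10 in O and 9 in NB. So were more genes of the whole table, with medians of 1397 in OligNBL, 1161 in NBL, 950.5 in OL, 1187 in O and 1114 in NB. The part of this in the shares was not tested.

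**Figure D1:**
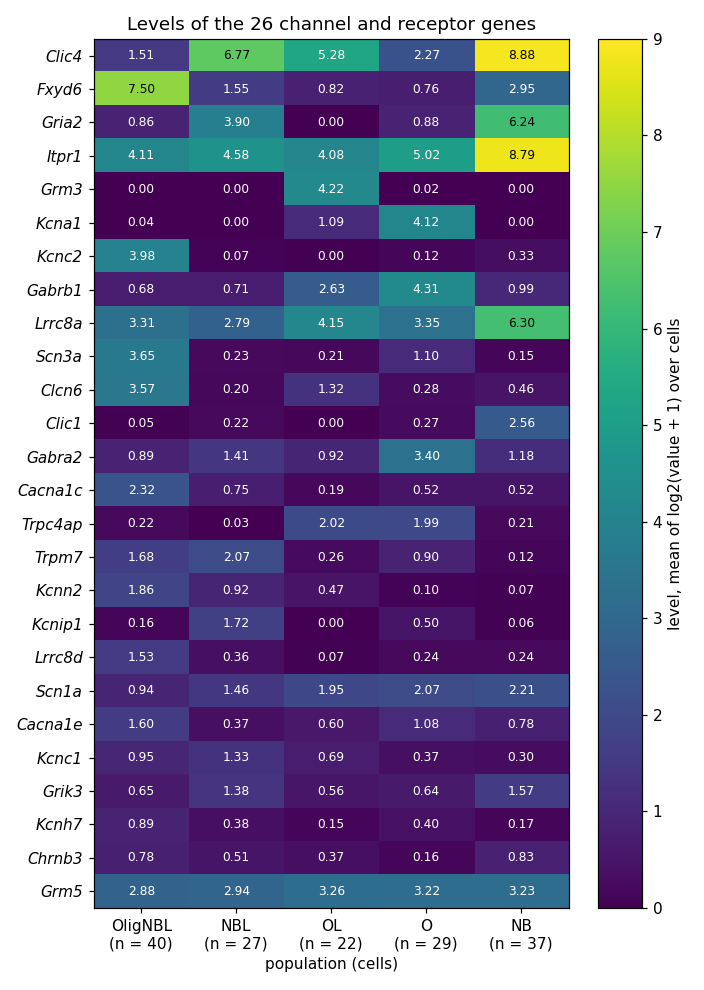
Levels, as means of log2(value + 1) over cells, of the 26 members (rows, ordered by the spread of their levels) in the 5 populations (columns, with the number of cells). Clic4 at the top runs from 1.51 in OligNBL to 8.88 in NB, and Grm5 at the bottom lies between 2.88 and 3.26 in all 5.

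Fxyd6 (chromosome 9, 45370185 to 45396159) encodes phosphohippolin, a small membrane protein that regulates the sodium pump. The lowest, median and highest cell were 0, 6.64 and 16.06 in OligNBL, 0, 0 and 6.58 in NBL, 0, 0 and 5.51 in OL, 0, 0 and 2.82 in O, and 0, 0.23 and 15.47 in NB. Its level was 7.50 ± 3.78 in OligNBL (SD, n = 40 cells), 1.55 ± 1.98 in NBL (n = 27), 0.82 ± 1.53 in OL (n = 22), 0.76 ± 1.04 in O (n = 29) and 2.95 ± 3.88 in NB (n = 37). The gene reached a cell's top 500 in 37 of 40 OligNBL cells (92.5%, exact Clopper-Pearson 95% interval 79.6% to 98.4%), in 5 of 27 NBL cells, 1 of 22 OL cells and 14 of 35 NB cells. In O it did so in 0 of 29 cells, and that count allows up to 10.3%. OligNBL stood apart: its blocks lay between 5.43 and 10.19, above every block of NBL (1.34 to 1.71), OL (0.58 to 1.14) and O (0.23 to 1.15), while the NB blocks spread from 0.32 to 5.85 and overlapped it. The OligNBL level was higher than NBL by 5.96 and higher than OL by 6.68, both larger than the SD of either population.

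Among the potassium channel genes, the highest populations differed from gene to gene. Kcnc2 (chromosome 10, 112271121 to 112467024), which encodes the fast-deactivating channel Kv3.2, had a level of 3.98 ± 4.47 in OligNBL, 0.07 ± 0.38 in NBL, 0 in OL, 0.12 ± 0.48 in O and 0.33 ± 1.85 in NB. It was detected in 29 of 40 OligNBL cells, with a median cell of 2.80 and a highest cell of 15.71, and in no OL cell. The difference was 3.91 from NBL and 3.98 from OL, smaller than the SD of the OligNBL cells. OligNBL blocks 1 to 6 rose in the order of the cell numbers, at 0.46, 1.13, 2.47, 4.47, 7.23 and 8.74. Kcna1 (chromosome 6, 126640397 to 126646384) encodes Kv1.1, a low-threshold channel, and was found mainly in O: its level was 0.04 ± 0.22 in OligNBL, 0 in NBL, 1.09 ± 2.06 in OL and 4.12 ± 4.86 in O, and it was detected in 1 of 40 OligNBL cells and in no NB cell. The O blocks ran from 1.12 to 8.63; O was higher than NB by 4.12, or by 2.40 without O block 2.

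The remaining potassium channel genes were low in most cells. Kcnip1, whose product is a calcium-binding partner of Kv4 channels, reached the top 500 in 9 of 27 NBL cells (level 1.72 ± 2.38), in 1 of 29 O cells and in none of 40 OligNBL, 22 OL and 35 NB cells. Of the 9 NBL cells 8 were in block 3, and the NBL level was 0.38 without that block. Kcnn2, the calcium-opened channel SK2, was among them in 11 of 40 OligNBL cells (level 1.86 ± 2.99), with levels of 0.92 in NBL, 0.47 in OL, 0.10 in O and 0.07 in NB; its OligNBL level was 1.01 without OligNBL block 4. Kcnc1, which encodes Kv3.1, lay between 0.30 in NB and 1.33 in NBL, and Kcnh7, an ERG-type channel, reached no more than 0.89 in any population.

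Of the 2 sodium channel genes, Scn3a (chromosome 2, 65457118 to 65567627) encodes Nav1.3, the sodium channel of the embryonic brain. Its lowest, median and highest cell were 0, 2.47 and 16.62 in OligNBL, 0, 0 and 2.82 in NBL, 0, 0 and 2.05 in OL, 0, 0 and 8.24 in O, and 0, 0 and 1.74 in NB. The OligNBL cells carried nearly all of the high values: 17 of 40 had the gene among their 500 highest, against 1 of 29 O cells and none of 27 NBL, 22 OL and 35 NB cells. The level was 3.65 ± 4.12 in OligNBL, 0.23 ± 0.70 in NBL, 0.21 ± 0.57 in OL, 1.10 ± 1.81 in O and 0.15 ± 0.43 in NB, and the OligNBL blocks ran from 0.29 to 7.52. Scn1a, which encodes Nav1.1 of mature neurons, ran instead from 0.94 ± 1.04 in OligNBL to 2.21 ± 1.82 in NB, a spread smaller than the SD between NB cells.

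Both calcium channel genes were highest in OligNBL. Cacna1c (chromosome 6, 118587240 to 119196418), the pore of an L-type channel, had a level of 2.32 ± 2.57 in OligNBL, 0.75 ± 1.15 in NBL, 0.19 ± 0.61 in OL, 0.52 ± 0.92 in O and 0.52 ± 1.26 in NB. OligNBL was higher than OL by 2.14, or by 1.77 without OligNBL block 6, 1.95 without block 4 and 1.99 without block 5. In cells with at least 1000 detected genes this difference was 1.87. Cacna1e, the pore of an R-type channel, was at 1.60 ± 3.03 in OligNBL and between 0.37 and 1.08 elsewhere. Trpm7, a cation channel fused to a kinase, was at 1.68 ± 2.60 in OligNBL, 2.07 ± 2.47 in NBL, 0.26 ± 0.69 in OL, 0.90 ± 1.32 in O and 0.12 ± 0.55 in NB, and 10 of 27 NBL cells had it among their 500 highest genes. Of these 10 cells 9 were in block 3, and the NBL level was 0.79 without that block.

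**Figure D2:**
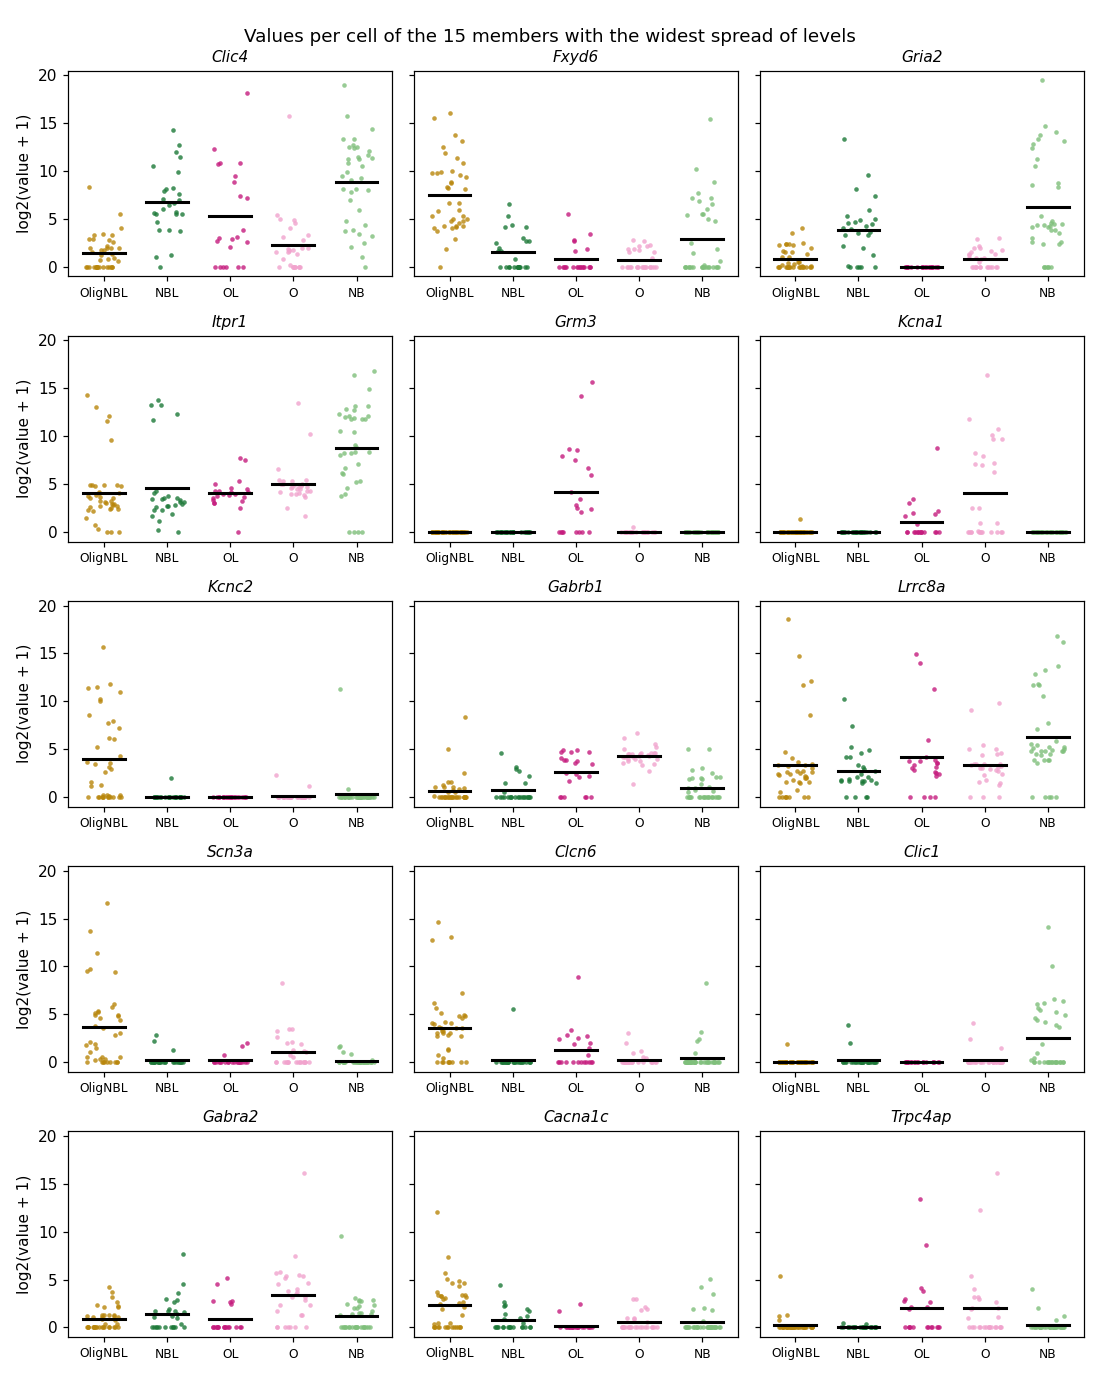
Values of single cells, log2(value + 1), for the 15 members with the widest spread of levels, in OligNBL, NBL, OL, O and NB (1 point per cell, horizontal bars at the mean). Fxyd6 lies above 0 in 39 of 40 OligNBL cells, Gabrb1 in 29 of 29 O cells, and Gria2 in no OL cell.

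The chloride channel and transporter genes did not share a pattern. Clic4 (chromosome 4, 135213969 to 135272814) encodes a protein of the chloride intracellular channel family, which occurs in soluble and membrane forms. Its lowest, median and highest cell were 0, 1.10 and 8.31 in OligNBL, 0, 6.46 and 14.31 in NBL, 0, 3.05 and 18.14 in OL, 0, 1.67 and 15.71 in O, and 0.01, 9.48 and 18.99 in NB. It reached the top 500 in 3 of 40 OligNBL, 24 of 27 NBL, 10 of 22 OL, 6 of 29 O and 30 of 35 NB cells. It thus ranked high in most cells of the GFP strain and in few double-positive cells. It was detected at any value in 24 of 40 OligNBL cells. The level of 1.51 ± 1.80 in OligNBL was lower than the 6.77 ± 3.50 in NBL by a difference of -5.26, larger than both SDs, with OligNBL blocks at 0 to 2.30 and NBL blocks at 4.90 to 10.89.

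In OL, high Clic4 sat in 1 run of cells. Its level was 5.28 ± 5.14 in OL and 2.27 ± 3.12 in O, a difference of 3.01. The 8 OL cells of block 1 held 7.23 to 18.14, whereas the medians of blocks 2 and 3 were 1.04 and 2.74. Without OL block 1 the OL minus O difference was -0.05, and without OL block 2 it was 4.69. The OligNBL minus OL difference of -3.77 became -0.71 without OL block 1.

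Clic1 (chromosome 17, 35049966 to 35058749), of the same family, was largely a gene of NB cells: 15 of 35 had it among their 500 highest genes, against 1 of 27 NBL and 1 of 29 O cells and none of 40 OligNBL and 22 OL cells. Its level was 0.05 ± 0.30 in OligNBL, 0.22 ± 0.83 in NBL, 0 in OL, 0.27 ± 0.89 in O and 2.56 ± 3.41 in NB. NB blocks 3 and 4 were at 4.66 and 4.38, and NB blocks 1, 2 and 5 at 0.00, 1.86 and 1.09. Clcn6 (chromosome 4, 148004259 to 148038821) encodes ClC-6, a chloride and proton exchanger of late endosomes, and was highest in OligNBL, at 3.57 ± 3.50, with 0.20 ± 1.06 in NBL, 1.32 ± 2.07 in OL, 0.28 ± 0.71 in O and 0.46 ± 1.51 in NB. OligNBL was higher than NBL by 3.37, a difference smaller than the SD of the OligNBL cells, and higher than OL by 2.25. The difference from OL was 1.57 without OligNBL block 2, 1.98 without OligNBL block 6 and 1.81 without OL block 3.

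Lrrc8a (chromosome 2, 30237715 to 30263790) encodes the obligatory subunit of the volume-regulated anion channel, through which swollen cells lose chloride and small organic molecules. It was detected in most cells of every population, from 80% of OligNBL cells to 89.7% of O cells, and NB cells had more of it: the level was 3.31 ± 4.14 in OligNBL, 2.79 ± 2.31 in NBL, 4.15 ± 4.10 in OL, 3.35 ± 2.22 in O and 6.30 ± 4.48 in NB. The 4 cells of OligNBL block 1 averaged 10.17, against 0.82 to 3.76 in the other OligNBL blocks, and the OligNBL level was 2.55 without them. The NBL blocks (1.99 to 3.63) lay below all NB blocks (4.58 to 9.52). Lrrc8d, another subunit, was at 1.53 ± 3.00 in OligNBL and at or below 0.36 in the other populations, and 6 of 40 OligNBL cells had it among their 500 highest genes. Its OligNBL level was 0.79 without OligNBL block 4.

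The GABA-A receptor subunit genes were highest in O. Gabrb1 (chromosome 5, 71658113 to 72149037), the beta 1 subunit, was detected in 29 of 29 O cells, with a lowest, median and highest cell of 1.33, 4.32 and 6.66. In the other populations the lowest cell was at 0, and the median and highest were 0 and 8.35 in OligNBL, 0 and 4.66 in NBL, 3.00 and 4.97 in OL, and 0.01 and 5.07 in NB. The level was 0.68 ± 1.56 in OligNBL, 0.71 ± 1.30 in NBL, 2.63 ± 1.89 in OL, 4.31 ± 0.98 in O and 0.99 ± 1.38 in NB. The OligNBL cells were not alike: the 4 cells of block 1 averaged 4.36, within the range of the O blocks, and the other 5 blocks lay between 0.11 and 0.52, so the OligNBL level was 0.28 without block 1. O was higher than NB by 3.31, larger than both SDs, and the O blocks (3.84 to 4.60) lay above the NB blocks (0.47 to 1.57). Gabra2 (chromosome 5, 70957597 to 71095849), the alpha 2 subunit, was among the 500 highest genes in 13 of 29 O cells and in 1 to 3 cells of each other population; its level was 0.92 ± 1.63 in OL, 3.40 ± 3.28 in O and 1.18 ± 1.81 in NB. Without O block 3 the OL minus O difference of -2.48 became -1.44, and the O minus NB difference of 2.22 became 1.18.

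Among the glutamate receptor genes, Gria2 (chromosome 3, 80681450 to 80802835) encodes GluA2, the AMPA receptor subunit that limits calcium entry. Its level was highest in NB and next in NBL, the GFP cells of the GFP strain. It was also detected, at low values, in 22 of 40 OligNBL and 16 of 29 O cells. The lowest, median and highest cell were 0, 0.18 and 4.10 in OligNBL, 0, 3.96 and 13.36 in NBL, 0, 0.87 and 3.07 in O, and 0, 4.41 and 19.50 in NB, and all 22 OL cells were at 0. Its level was 0.86 ± 1.14 in OligNBL, 3.90 ± 3.20 in NBL, 0 in OL, 0.88 ± 0.96 in O and 6.24 ± 5.14 in NB. The OligNBL minus NBL difference was -3.03, with all OligNBL blocks (0.04 to 1.75) below the NBL blocks (1.90 to 6.76); it was -1.83 without NBL block 1. The O minus NB difference of -5.36 was larger than both SDs.

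Grm3 (chromosome 5, 9485541 to 9725170), the metabotropic receptor mGluR3, was nearly restricted to OL by detection: 14 of 22 OL cells, 1 of 29 O cells and no OligNBL, NBL or NB cell. Its OL level was 4.22 ± 4.68 and its O level 0.02 ± 0.11. Block 1 of OL, the same 8 cells that held the high Clic4 values, ran from 5.92 to 15.71, against medians of 0 and 1.07 in blocks 2 and 3. Without that block the OL minus O difference of 4.20 became 1.24, and the OligNBL minus OL difference of -4.22 became -1.26. In the same block the median of Gabrb1 was 0, against 3.86 and 4.16 in blocks 2 and 3.

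Grm5, which encodes mGluR5, varied least of all members, with levels of 2.88 ± 2.74 in OligNBL, 2.94 ± 2.42 in NBL, 3.26 ± 2.17 in OL, 3.22 ± 2.68 in O and 3.23 ± 2.47 in NB. Grik3, a kainate receptor subunit, was at 0.65 ± 1.43 in OligNBL, 1.38 ± 2.91 in NBL, 0.56 ± 1.07 in OL, 0.64 ± 1.08 in O and 1.57 ± 2.90 in NB. Chrnb3, the beta 3 subunit of the nicotinic acetylcholine receptor, did not exceed 0.83 in any population.

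Itpr1 (chromosome 6, 108213096 to 108551109) encodes an IP3 receptor that releases calcium from the endoplasmic reticulum. It was detected in most cells of every population and was highest in NB: the level was 4.11 ± 3.41 in OligNBL, 4.58 ± 4.17 in NBL, 4.08 ± 1.57 in OL, 5.02 ± 2.13 in O and 8.79 ± 4.54 in NB. Values of 10 or more occurred in 4 of 40 OligNBL, 5 of 27 NBL, no OL, 2 of 29 O and 17 of 37 NB cells. In OligNBL the 4 cells of block 1 averaged 12.15, against 1.26 to 5.07 in the other blocks, and the level was 3.22 without them. The NBL level was 2.65 without NBL block 1. The NBL minus NB difference of -4.20 became -2.49 without NBL block 3, and the NBL blocks (2.09 to 9.18) overlapped the NB blocks (4.67 to 12.41). Trpc4ap was at 2.02 ± 3.31 in OL and 1.99 ± 3.72 in O, and at or below 0.22 in OligNBL, NBL and NB. The O level was 1.12 without O block 1, and the OL level 3.18 without OL block 1.

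**Figure D3:**
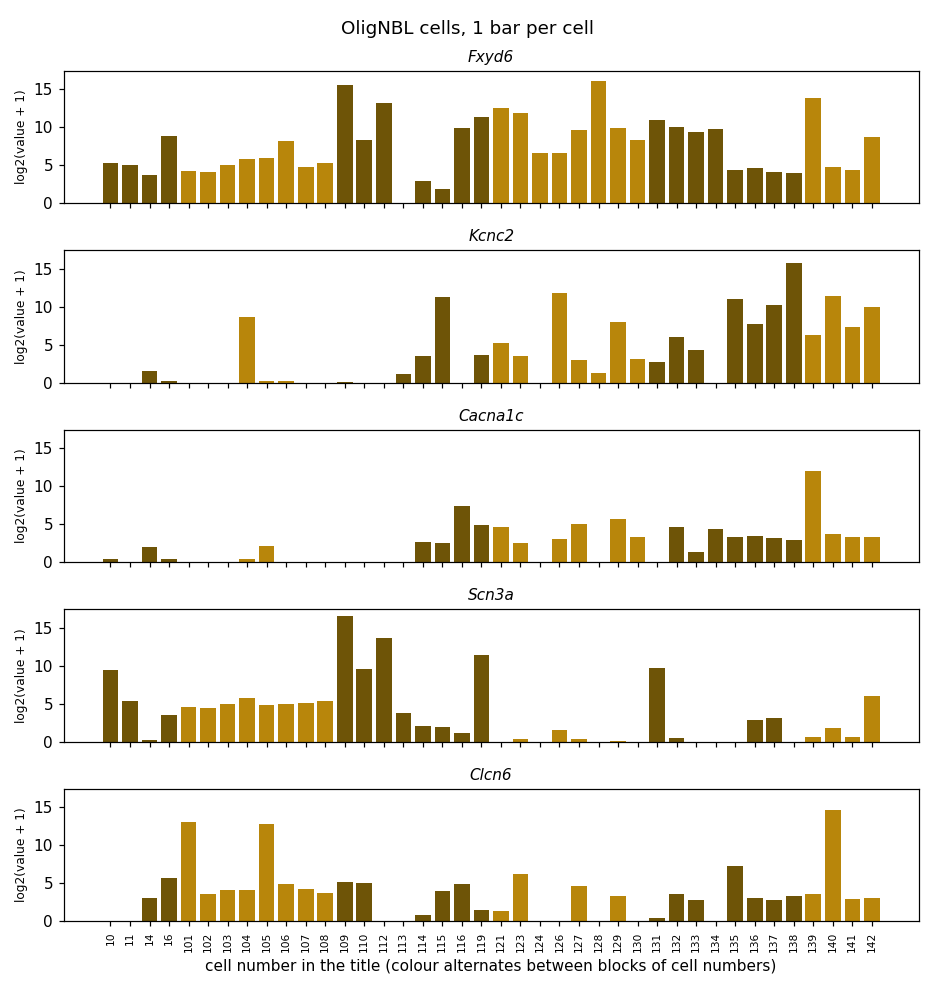
Values of 5 members in each OligNBL cell, log2(value + 1), with 1 bar per cell in the order of the cell numbers and colour alternating between blocks. Fxyd6 is above 0 in 39 of 40 cells, while Kcnc2 and Scn3a are high in different runs of cells, with block means of 0.46 to 8.74 and 0.29 to 7.52.

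The double-positive cells were not uniform for the channel genes that were highest in them. Scn3a was among the 500 highest genes in 17 OligNBL cells and Cacna1c in 9, and 1 cell had both. Kcnc2 (16 cells) and Cacna1c were both among them in 6 cells. Across the 40 cells Pearson's r of the log2 values was -0.44 for Scn3a with Cacna1c and 0.41 for Kcnc2 with Cacna1c. Cells share blocks of numbers, so these describe the cells at hand. Along the cell numbers, Kcnc2 and Cacna1c were both lowest in OligNBL blocks 1 and 2 and highest in block 6. Scn3a was at 4.65 to 7.52 in blocks 1 to 3 and at 0.29 to 2.24 in blocks 4 to 6. The part of cell number in these values was not tested. The number of members among a cell's 500 highest genes had a median of 4 in OligNBL (2 to 10), 4 in NBL (1 to 9), 3.5 in OL (2 to 6), 4 in O (1 to 6) and 5 in NB (3 to 8). Members made up 0.885% of these entries and 0.76% of the genes.

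For OligNBL minus NBL, which sets double-positive cells against GFP cells of another strain that is also labelled lesion, 4 of 26 members were higher by at least 2 (Fxyd6, Kcnc2, Scn3a and Clcn6), where the background over all genes was 12.2%, and 2 were lower (Clic4 and Gria2), where it was 10.3%. The median difference was 0.02, against 0.03 over all genes. Block means did not overlap for 5 members, all of these but Scn3a (background 13.9%). For OligNBL minus OL, 5 members were higher (Fxyd6, Kcnc2, Scn3a, Clcn6 and Cacna1c; background 13.2%) and 2 lower (Grm3 and Clic4; background 12.2%), with a median of 0.21, against 0.13 over all genes. Block means did not overlap for 8 members (background 16.4%). Of these, Fxyd6, Kcnc2, Scn3a, Cacna1c and Grm3 were past 2, and Trpm7, Gria2 and Kcna1 were not. Block means overlapped for Clcn6 and Clic4. These 2 comparisons share the OligNBL cells. At least 1000 genes were detected in 38 of 40 OligNBL cells, against 22 of 27 NBL and 9 of 22 OL cells. The part of this in the differences was not tested.

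For NBL minus NB, the lesion and healthy GFP cells, 0 members were higher (background 9.76%) and 5 were lower, namely Itpr1 at -4.20, Lrrc8a at -3.51, Clic1 at -2.35, Gria2 at -2.34 and Clic4 at -2.11 (background 8.39%). The median was -0.22 over members and -0.004 over all genes. Block means did not overlap for Lrrc8a, which was lower, and Kcnc1, which was higher by 1.02 (background 10.6%). Several of these rest on few cells. Clic4 was -3.84, -1.46 and -0.82 without NBL blocks 1, 2 and 3, and -1.52 without NB block 5. Gria2 was -3.55, -1.50 and -1.91 without NBL blocks 1, 2 and 3, and -1.79 and -1.94 without NB blocks 2 and 5. Clic1 was -1.77 and -1.84 without NB blocks 3 and 4.

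For OL minus O, the lesion and healthy Tomato cells, 2 members were higher (Grm3 and Clic4; background 8.36%) and 2 lower (Kcna1 and Gabra2; background 7.92%), with a median of -0.15, against -0.10 over all genes. Block means did not overlap for 6 members (background 19.3%). Of these, Grm3 and Gabra2 were past 2, and Gria2, Cacna1c, Kcnip1 and Scn3a were not. Block means overlapped for Clic4 and Kcna1. Kcna1 was lower by a difference of -3.03, which was -4.61 without O block 1 and -1.31 without O block 2. Fewer genes were detected in OL cells, and 9 of 22 OL cells, against 21 of 29 O cells, had at least 1000; the part of this in the differences was not tested.

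For O minus NB, the healthy populations, 3 members were higher (Kcna1, Gabrb1 and Gabra2; background 12.3%) and 6 lower, namely Clic4 at -6.61, Gria2 at -5.36, Itpr1 at -3.77, Lrrc8a at -2.95, Clic1 at -2.29 and Fxyd6 at -2.20 (background 13.5%). Block means did not overlap for 8 members (background 26.7%). Of these, Kcna1, Gabrb1, Gabra2, Clic4 and Gria2 were past 2, and Chrnb3, Kcnip1 and Scn3a were not. Block means overlapped for Itpr1, Lrrc8a, Clic1 and Fxyd6. Clic1 was -1.71 and -1.79 without NB blocks 3 and 4. Fxyd6 was -1.40 and -1.59 without the same blocks and -1.99 without O block 2, and Gabra2 was 1.99 without NB block 2. The median was 0.00 over members and 0.09 over all genes.

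Counted in either direction, the share of members past 2 was close to that of the whole table in most comparisons. It was 23.1% in OligNBL minus NBL, where the background was 22.5%, 26.9% in OligNBL minus OL (background 25.4%), 19.2% in NBL minus NB (background 18.1%) and 15.4% in OL minus O (background 16.3%). In O minus NB it was 34.6%, against a background of 25.8%.

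**Figure D4:**
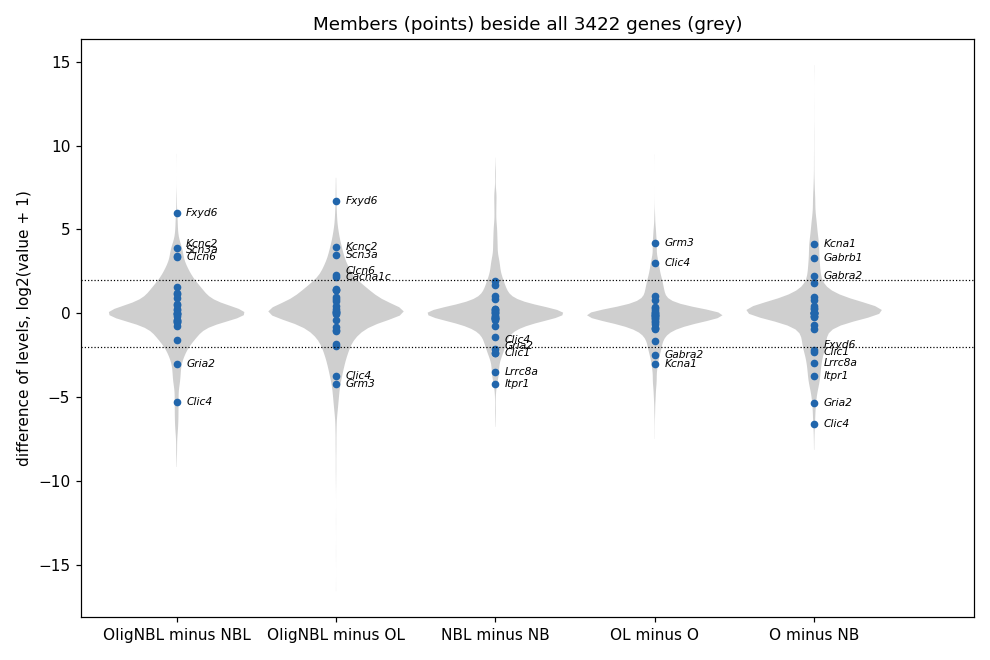
Differences of levels, log2(value + 1), of the 26 members (points) and all 3422 genes (grey shapes, width by number of genes) in the 5 comparisons, with dotted lines at a difference of 2 in either direction. Named points lie past the lines, from Clic4 at -6.61 in O minus NB to Fxyd6 at 6.68 in OligNBL minus OL.

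Genes that work with these channels were read from lists chosen with earlier results known. Of 84 other channel and receptor genes 11 were measured. The widest was Ttyh2, of a family of anion channel-like membrane proteins, with a level of 0.18 ± 0.80 in OligNBL, 0.00 ± 0.02 in NBL, 7.20 ± 5.29 in OL, 9.04 ± 5.38 in O and 0.03 ± 0.17 in NB. In the 5 comparisons, as named in the order above, 1, 0, 1, 0 and 2 of the 11 were higher by at least 2, and 1, 2, 0, 0 and 0 lower. Over all genes the shares in that order were 12.2%, 13.2%, 9.76%, 8.36% and 12.3% higher and 10.3%, 12.2%, 8.39%, 7.92% and 13.5% lower, and these are the background of the other lists too, each of which holds few measured genes.

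Of 30 genes for chloride and GABA handling 10 were measured, and for OligNBL minus NBL 2 were higher (Gad1 and Gabarapl2) and 3 lower (Gphn, Gabarapl1 and Plcl1), where the background was 12.2% higher and 10.3% lower. Gphn, the gephyrin scaffold that anchors GABA-A and glycine receptors, was at 0.44 ± 0.93 in OligNBL, 3.77 ± 3.71 in NBL, 0 in OL, 0.37 ± 0.95 in O and 5.67 ± 4.05 in NB. Gad1, which makes GABA and whose promoter drives the GFP, was at 5.53 ± 4.56 in OligNBL, 1.63 ± 1.71 in NBL, 0.42 ± 1.17 in OL, 0.34 ± 0.94 in O and 3.59 ± 3.26 in NB. For O minus NB, 1 gene was higher (Slc12a9) and 4 lower (Gad1, Gphn, Gabarap and Gabarapl1), where it was 12.3% higher and 13.5% lower.

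Of 23 pump and exchanger genes 3 were measured, and the sodium pump subunit Atp1b2 was at 0.10 ± 0.61 in OligNBL, 0 in NBL, 0.20 ± 0.52 in OL and 4.59 ± 5.61 in O. Of 51 glutamate synapse scaffold genes 9 were measured, and Nrxn3 was the only one past 2, higher in OligNBL than NBL and in OL than O. Of 30 channel anchors and partners 11 were measured: Ank2, Adam22 and Akap9 were lower in OligNBL than NBL and higher in NBL than NB, comparisons that share the NBL cells, while Ank3 and Nfasc, which hold sodium channels at the axon, were lower in OL than O and higher in O than NB. Of 42 G protein and inositol phosphate genes 12 were measured, and 4 (Gnas, Gnb1, Gnb2 and Gng2) were higher and 1 (Erlin2) lower in NBL than NB.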

How the data were processed

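Single cells were measured by SMART-Seq2. Reads were quantified with kallisto, and limma was used, on the build GRCm38, per the submitters' processing notes; no version is stated there. The values deposited are called estimated counts but behave as a normalized signal: the deposited signal values sum to 5155899 to 5161091 in every cell, so the depth per cell is unknown and no count test was run. The design assumed no test and was kept.

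From the signal, log2(value + 1) was averaged over cells with Python 3.11.15, numpy 2.4.6, pandas 2.3.3 and scipy 1.17.1, and plotted with matplotlib 3.10.9. The steps were tested on simulated data. A gene was detected where its value was above the cell's lowest; in 1 NB cell 3069 genes tied at that lowest value. Cells with under 500 detected genes (2 of NB) were left out of shares only. No doublets were called. Each population was 1 sample, so SDs and exact 95% intervals cover cells and counting error only. A share of 0 has as its limit 3 cells over the number of cells. This limit is printed for Fxyd6 in O only. For any gene it is 7.5% in OligNBL, 11.1% in NBL, 13.6% in OL, 10.3% in O and 8.57% in NB. The named genes are the 26 members by role, with the 15 of widest spread in full. Members and lists were chosen with earlier results of these data known. Coordinates are from GENCODE mouse release 21.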

Additional observations from a re-analysis of the deposited data

Results flagged for a closer look

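The level of Clic4 differed between lesion and healthy cells in opposite directions in the 2 lineages. The NBL minus NB difference was -2.11 and the OL minus O difference was 3.01, on the log2(value + 1) scale. The difference between these differences was not tested, since no mouse is named for any cell. Without OL block 1 the OL minus O difference was -0.05, and without NBL block 3 the NBL minus NB difference was -0.82. Both differences were smaller than the SD of either population, and block means overlapped in both comparisons. By presence NBL was not lower than NB: the share of cells was 88.9% in NBL and 85.7% in NB, and 45.5% in OL and 20.7% in O.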

How the results depend on the processing

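Each population is 1 sample of unknown depth, so no result has a replicate check between mice. No paired analysis was possible because the result comes from no test and the numbers in the titles name no mouse. The 31 single differences past 2, picked for that in these same cells, gave 248 values under other settings. All 248 kept their sign and 225 stayed past 2. Of the 23 that did not, 12 came with a pseudocount of 10 and 9 with the median over cells, where Clic1 was -0.23 and Gria2 -0.45 in NBL minus NB, Clic1 and Fxyd6 were -0.23 each in O minus NB, and Kcna1 was -0.98 in OL minus O and 0.98 in O minus NB. In cells with at least 1000 detected genes Itpr1 in NBL minus NB was -7.10. Gabrb1 in O minus NB was 1.34 with a pseudocount of 10 and 5.19 with 0.1. Leaving out a block, 224 of 253 values stayed past 2. Clic4 in OL minus O reversed, to -0.055, without OL block 1 and reached 4.69 without OL block 2; the cause was not tested.

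Counts of members depended on the settings. They are given without a share over all genes, which was taken for the main setting only. For OligNBL minus NBL, a pseudocount of 10 gave 2 higher and 1 lower, and a difference of at least 1 gave 7 higher. For OligNBL minus OL, a pseudocount of 10 gave 2 higher, a pseudocount of 0.1 gave 9 higher and 5 lower, a difference of at least 1 gave 8 higher and 6 lower, a difference of at least 3 gave 3 higher, and cells with at least 1000 detected genes gave 5 lower. For NBL minus NB, higher members numbered 3 with a pseudocount of 0.1, 2 in cells with at least 1000 genes, 3 at a difference of at least 1 and 2 by a share different by 25 points; lower members numbered 3 with the median over cells, 2 at a difference of at least 3 and 3 by the share. For OL minus O, lower members numbered 1 with a pseudocount of 10, 4 with 0.1, 1 with the median over cells and 1 at a difference of at least 3, and higher members numbered 1 with the median and 1 by the share. For O minus NB, a pseudocount of 10 gave 1 higher, and the median over cells and a difference of at least 3 gave 3 lower each.

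Leaving out 1 block at a time gave 4 to 5 higher and 2 to 3 lower for OligNBL minus NBL, 3 to 5 and 2 to 3 for OligNBL minus OL, 0 to 2 and 3 to 5 for NBL minus NB, 0 to 2 and 1 to 3 for OL minus O, and 2 to 4 and 4 to 6 for O minus NB. Members present in at least 25% of cells numbered 7 in OligNBL, 7 in NBL, 6 in OL, 6 in O and 7 in NB. Among the 300 highest genes they numbered 3 in OligNBL, 1 in NBL, 2 in OL and 2 in O, and by any value above the lowest 21 in OligNBL, 16 in NBL, 12 in OL, 17 in O and 13 in NB. No share over all genes was taken for these counts. Genes of the whole table detected per cell had a median of 1397 in OligNBL and of 950.5 to 1187 elsewhere. The part of this in the counts was not tested. Setting tied lowest values to 0, and leaving out cells with under 500 detected genes, were added after seeing the data and changed no sign. The latter left out 2 NB cells only, so levels in comparisons without NB could not change under it.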

Other observations

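Fxyd6 and Clic1 were mostly found in the same NB cells. Of 35 NB cells, 14 had Fxyd6 and 15 had Clic1 among their 500 highest genes, and 14 had both. Pearson's r of the log2 values was 0.95 over these cells, and 29 of 3047 genes compared had an r of at least 0.9 with Fxyd6. Of the cells with Fxyd6 among their 500 highest genes, 7 were in NB block 3 and 5 in block 4. For Clic1 these were 7 and 5 as well, and NB blocks 1, 2 and 5 held 0 to 2 such cells each for either gene. At any value, Fxyd6 was detected in 19 cells and Clic1 in 19, and both in 16, numbered 25 to 56 in the titles. This pair was singled out after its values were seen, and the cells share runs of numbers.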
